A study of Mus musculus with 5 samples.

Results

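The cells described here carry the authors' label MFOL2, 1 of 12 labels given to OL lineage cells in single-cell RNA-seq of the adult mouse corpus callosum. They were chosen by that deposited label. The study's methods describe clustering of these transcriptomes, but whether the deposited label column is that clustering could not be worked out from the sources used here, so a value for MFOL2 is a value for the cells so labelled. Because the label may have been made from these same transcriptomes, every difference between MFOL2 and another label below is a description and was not tested. Of the 66 cells with the label, 1 was left out because it held 61 UMIs (unique molecular identifiers, each standing for a captured RNA molecule) of C1qa, C1qb and Cx3cr1, genes of microglia. The rule removed a cell at 3 or more such UMIs, the 65 kept cells held 0, and no other cell of the data held more than 1. The 65 cells were 46 of 1901 TdTom+ cells and 19 of 952 GFP+ cells, 65 of 2853 in all.

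Both libraries came from mice at P60 that carried Emx1::Cre together with the reporter Sox10::Cre-LoxP-GFP-STOP-TdTom on a mixed CBA and C57BL/6 background, in which Sox10 regulatory sequence drives the reporter and Emx1::Cre switches it from GFP to TdTom in cells of dorsal forebrain origin. Tissue of 2 mice was pooled, sorted by reporter and made into 1 library per origin, TdTom+ for dorsal and GFP+ for ventral. The sort therefore selected for an active Sox10 reporter, but its purity was not measured here. There was no replicate of either library. The 3 spinal cord libraries of the series were not analysed here. In these animals a difference between the libraries cannot be told apart from a difference between 2 sorted fractions or 2 library preparations.

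As background, oligodendrocyte precursor cells (OPC) pass through committed (COP) and newly formed (NFOL) stages before they wrap axons as myelin-forming oligodendrocytes (MFOL) and settle as mature oligodendrocytes (MOL). Myelin-forming cells are known for transcripts of the sheath itself, such as Mal and Opalin, and for membrane synthesis. Mature cells are known to differ in state and in their preferred regions, with MOL5/6 cells marked by Ptgds, Grm3 and Car2 and MOL2 cells by Klk6, Hopx and Anxa5.

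MFOL2 cells made up 2.42% of the TdTom+ library (95% exact interval 1.78 to 3.21) and 2.00% of the GFP+ library (1.21 to 3.10). These intervals, like all others here, cover counting error only. TdTom+ cells were 70.8% of the MFOL2 cells (58.2 to 81.4) against 66.6% of all cells. The 46 TdTom+ cells held 160621 UMIs and the 19 GFP+ cells 55845. Their median of 2825 UMIs per cell was the lowest of the 12 labels, the other labels lying between 2895 and 8215. Genes detected per cell had a median of 1356, and of 1186 after each cell was thinned to 2400 UMIs (10 shallower MFOL2 cells left out), with 6 labels below and 5 above. A median of 1.36% of the UMIs of an MFOL2 cell came from mitochondrial genes and 7.23% from ribosomal protein genes. The depth of the MFOL2 cells moved with their label. With every cell thinned to equal depth, 40 of the 58 genes higher and 16 of the 30 genes lower than in MFOL1 (below) were still past 2-fold. No barcode of an MFOL2 cell occurred in both libraries.

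MFOL2 cells did not lie next to each other. Among the 15 nearest neighbours of each MFOL2 cell, taken over 30 principal components of 3000 variable genes centred within each library, 30 of 975 neighbours or 3.08% carried the label MFOL2, while MFOL2 cells were 2.24% of all other cells. In the other 11 labels the own-label share was between 41.8% (MOL4-5/6) and 93.3% (COP/NFOL), and it was 53.5% in MFOL1. As many as 45 of the 65 cells had 0 MFOL2 neighbours, and no cell had more than 4. The neighbours carried the labels MOL4-5/6 in 20.5% of cases, MOL6a in 20.1%, MOL6b in 16.6%, MOL2b in 15.9%, MOL2a in 6.97% and MFOL1 in 6.26%. Mature labels made up 85.4% of the neighbours and 76.4% of all cells. Counting the cells with over 50% of their neighbours in a single label, 10 MFOL2 cells lay among MOL6a, 6 among MOL6b, 5 among MOL4-5/6, 5 among MOL2b, 3 among MOL2a, 2 among MOL2/4, 1 among MOL2/MFOL and 1 among MFOL1, and 32 had no such label. In the other direction, MFOL2 cells made up 11.7% of the neighbours of OPC cells, but this share depended on the settings, being 7.39% with 30 neighbours and 2.73% with 15 components. The own-label share of MFOL2 stayed between 2.56% and 3.49% with 30 neighbours, with 15 components and without centring. The name is kept below only as the deposited label.

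**Figure D1:**
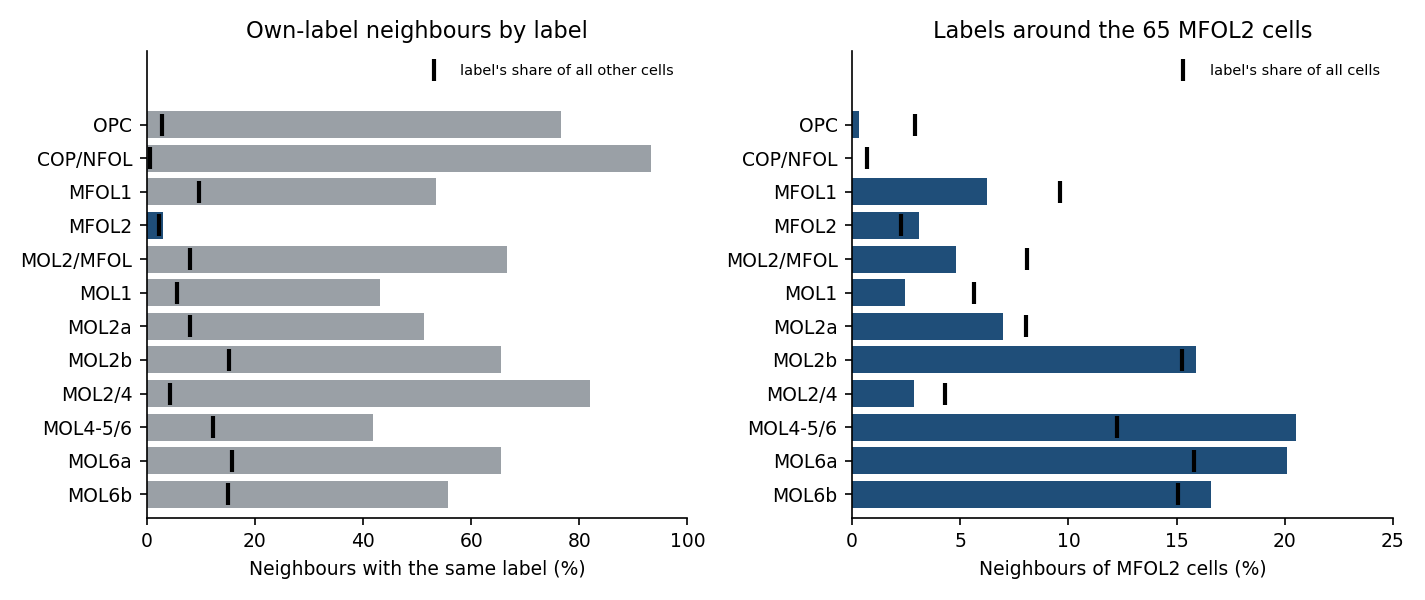
Left, for each of the 12 labels, the percentage of the 15 nearest neighbours of its cells that carry the same label (bars), with the label's share of all other cells as a black tick. Right, the labels carried by the 975 neighbours of the 65 MFOL2 cells (bars, in percent), with each label's share of all cells as a black tick. The MFOL2 bar on the left stands at 3.08%, close to its tick, while the other labels stand at 41.8% or more.

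The summed transcriptome of the MFOL2 cells was closest to those of the mature labels. Over genes with at least 100 CPM (summed UMIs scaled to 1000000) in either group, the Pearson r of log2(CPM + 5) across genes, which are not independent replicates, was 0.947 with MOL4-5/6, 0.938 with MOL6b, 0.936 with MOL6a and 0.916 with MOL2b. It was 0.912 with MFOL1, 0.911 with MOL1, 0.900 with both MOL2/MFOL and MOL2a, 0.742 with MOL2/4, 0.320 with COP/NFOL and 0.227 with OPC. Genes at least 2-fold apart were 28 of 1714 (1.63%) against MOL4-5/6 and 88 of 1731 (5.08%) against MFOL1. By this measure MFOL1 was further from MFOL2 than MOL1 (3.59%), MOL2a (4.19%) and MOL2/MFOL (4.81%), which r placed below it. With the 7 mature labels summed, r was 0.954.

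**Figure D2:**
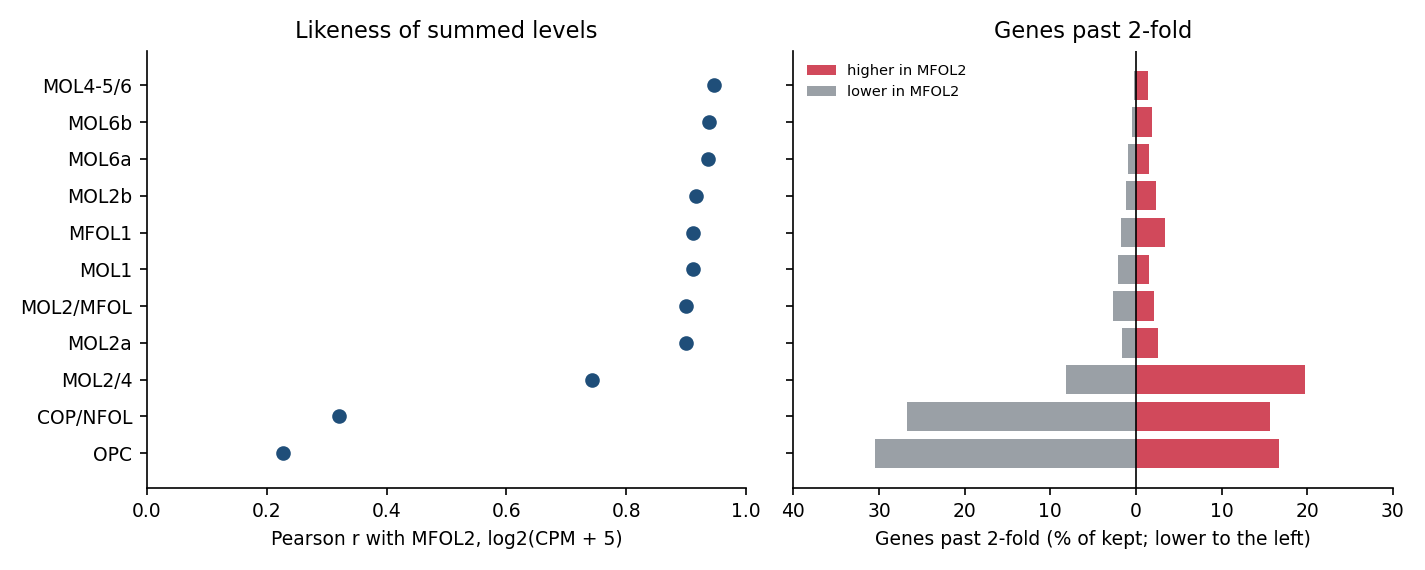
Left, Pearson r across genes between the summed log2(CPM + 5) of MFOL2 and of each other label. Right, the percentage of kept genes at least 2-fold higher in MFOL2 (red, to the right) or at least 2-fold lower (grey, to the left). MOL4-5/6 has the highest r (0.947) and OPC the lowest (0.227).

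Against MFOL1, MFOL2 cells had more RNA of Pmp22, Sepp1, Spock3 and Hapln2 and less of the MFOL list genes Mal, Tspan2 and Serinc5, while most genes of the myelin and lipid lists were within 2-fold. Of 1731 genes, 58 or 3.35% were at least 2-fold higher and 30 or 1.73% at least 2-fold lower, on the scale of log2(CPM + 5), and the median over all these genes was 0.10. The 2 libraries gave the same direction for 53 of the 58 higher and all 30 lower genes. In 8 of the 58 and 6 of the 30, a single cell held over 25% of the MFOL2 UMIs. With edgeR's TMM scaling the median of all genes moved to -0.05 and the counts were 46 higher and 47 lower, and the genes named below as highest or lowest kept their direction.

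Pmp22, which encodes a compact myelin protein known best from peripheral nerve, had the highest ratio to MFOL1 among genes with no cell over 25% of the UMIs and the same direction in both libraries. Above it lay Sox11, Ptprz1, Marcks and Cspg5 (log2 ratios 4.48, 3.85, 3.41 and 3.19), in each of which a single cell held between 36.0% and 95.7% of the UMIs. It had 237 CPM in TdTom+ MFOL2 cells and 233 CPM in GFP+ MFOL2 cells, against 21.8 and 20.8 CPM in MFOL1 cells of the same libraries. The MFOL2 and MFOL1 levels did not overlap, and the log2 ratio was 3.18 (9.08-fold; 95% exact interval 2.75 to 4.18, taken without the pseudocount). The mature labels had 307 CPM, above MFOL2 with a log2 ratio of -0.38 (-0.81 to 0.02). Within MFOL2, 29 of the 65 cells had a Pmp22 UMI and none had more than 4.

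Hapln2, which encodes a link protein of the extracellular matrix at nodes of Ranvier, had 411 CPM in TdTom+ and 627 CPM in GFP+ MFOL2 cells, against 95.9 and 76.3 CPM in MFOL1. Both MFOL2 values were above both MFOL1 values, with a log2 ratio of 2.32 (1.99 to 2.79). It was detected in 50 of the 65 cells with at most 5 UMIs in any cell, and its levels in the other labels ran from 18.8 CPM in OPC and 89.1 CPM in MFOL1 through 248 to 355 CPM in MOL6a, MOL4-5/6 and MOL6b to 746 and 750.5 CPM in MOL2a and MOL2b, and 1165 CPM in MOL2/4. MFOL2, at 467 CPM, sat between the MOL5/6 labels and the MOL2 labels. Sepp1, the gene of the plasma selenium carrier selenoprotein P, had 928 CPM in TdTom+ and 1647 CPM in GFP+ MFOL2 cells, against 154 and 194 CPM in MFOL1, a log2 ratio of 2.69 (2.46 to 3.00). Spock3, a proteoglycan gene of the MOL2 list, had 231 CPM in MFOL2 and 30.2 CPM in MFOL1 (log2 ratio 2.74).

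The other genes named as highest against MFOL1 were Mapre2, encoding a microtubule end-binding protein (log2 ratio 1.90, with 1.61 in TdTom+ and 2.61 in GFP+), S100b, encoding a calcium-binding protein (1.86), Gstm1, a glutathione transferase gene (1.83), and Dnah14, a dynein heavy chain gene (1.82). Dnah14 had 176 CPM in MFOL2, above all 11 other labels, the next being MOL2a with 151 CPM. Apod, a lipid carrier gene, followed the same direction, with 1307 and 2023 CPM in TdTom+ and GFP+ MFOL2 cells against 471 and 534 CPM in MFOL1 (log2 ratio 1.59). Trf, which encodes the iron carrier transferrin, had 2744 CPM against 1245 CPM in MFOL1 (log2 ratio 1.14).

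The genes lowest against MFOL1 were led by Shisa8, at 18.5 CPM in MFOL2 and 108 CPM in MFOL1 (log2 ratio -2.27, interval -4.45 to -1.16), which rests on 4 UMIs in 4 cells and differed between the libraries, being -3.25 in TdTom+ (6.23 against 102 CPM) and -1.09 in GFP+ cells (53.7 against 120.2 CPM). Serinc5, a membrane gene of the MFOL list, had 56.0 CPM in TdTom+ and 143 CPM in GFP+ MFOL2 cells, against 254 and 245 CPM in MFOL1. The log2 ratio was -1.61 (-2.47 to -0.97), it was under 2-fold in the GFP+ library alone (-0.75), 14 of 65 cells had a UMI, and the mature labels had 87.9 CPM. Pdlim2, a gene of an actin-associated LIM protein, had 222 CPM against 605 CPM in MFOL1 (log2 ratio -1.43, -1.90 to -1.03). Tspan2, a tetraspanin gene of the myelin sheath, had 940 and 1021 CPM in the 2 libraries of MFOL2 against 2364 and 2315 CPM in MFOL1, with a log2 ratio of -1.28 (-1.50 to -1.09), and it was detected in 57 of the 65 cells. The remaining lowest genes were Prickle1 (-1.71), Cntfr (-1.41), Hist1h1c (-1.41), Thtpa (-1.40) and Leprot (-1.37), each with 12 or fewer UMIs in the 65 cells. A single cell held 50% of the UMIs of Hist1h1c and of Prickle1, and without the 4 cells their ratios were -2.41 and -2.34. Hist1h1c was under 2-fold in the TdTom+ library alone (-0.95, against -2.67 in GFP+), and Cntfr in the GFP+ library alone (-0.76).

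**Figure D3:**
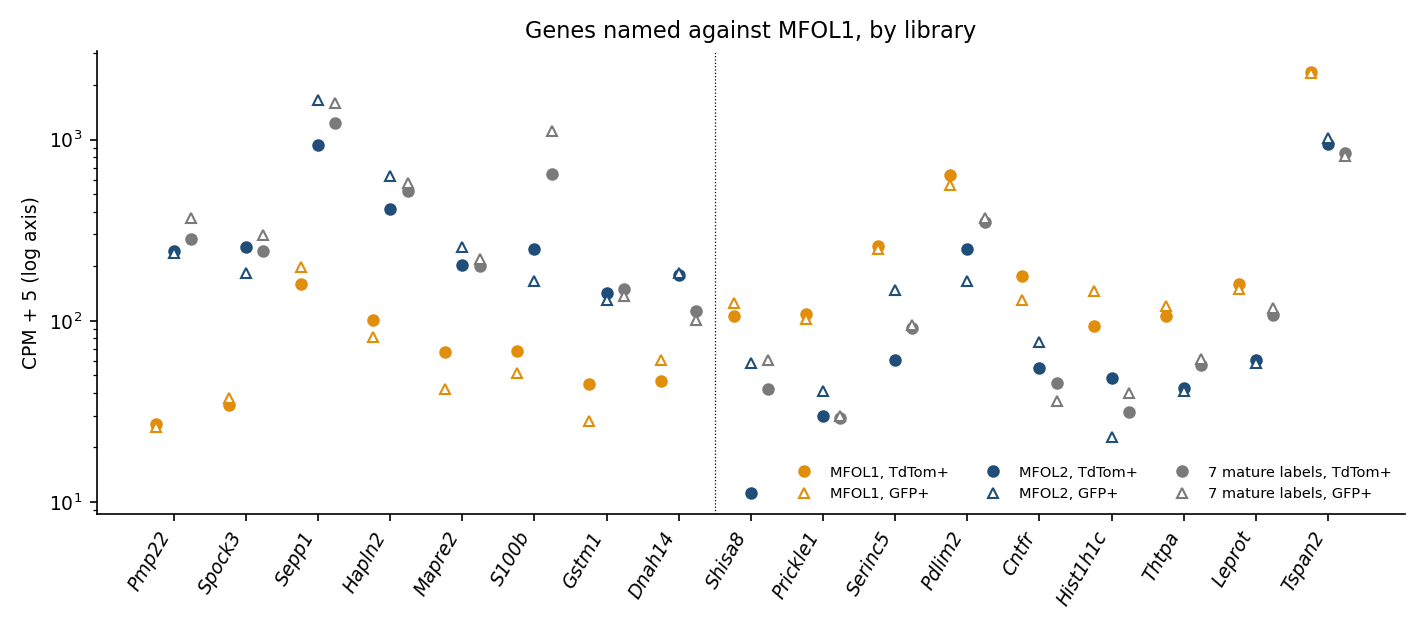
Level of each named gene as CPM + 5 on a log axis, for MFOL1 (orange), MFOL2 (blue) and the 7 mature labels summed (grey), with filled circles for the TdTom+ library and open triangles for the GFP+ library, each point being 1 sum over cells. To the left of the dotted line, the 8 genes highest against MFOL1 have MFOL2 points above MFOL1, as for Pmp22 at 237 and 233 CPM, and to the right of it MFOL2 points lie below MFOL1, as for Tspan2 at 940 and 1021 CPM.

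The promoters of a gene from each end are shown to give the sequence at these starts, from 250 bases before to 50 after the start (RefSeq, GRCm38.p6). Capitals mark the core letters bound by Sox factors, ACAAAG or ACAATG, or their reverse complements CTTTGT and CATTGT. These letters occur in 28.6% of the 32851 promoter windows of the table. Of the genes named against MFOL1, 7 of the 8 higher and 7 of the 8 lower had a window, of which 2 and 1 held the letters. The Hapln2 window lies at chr3:88027462-88027761 on the minus strand, and the Serinc5 window, with no match, at chr13:92610888-92611187 on the plus strand.
Hapln2: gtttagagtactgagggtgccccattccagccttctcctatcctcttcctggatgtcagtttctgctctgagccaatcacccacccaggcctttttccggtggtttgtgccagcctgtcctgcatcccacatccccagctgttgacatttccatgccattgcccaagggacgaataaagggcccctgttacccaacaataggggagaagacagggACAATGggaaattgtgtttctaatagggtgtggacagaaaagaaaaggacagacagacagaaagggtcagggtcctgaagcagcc
Serinc5: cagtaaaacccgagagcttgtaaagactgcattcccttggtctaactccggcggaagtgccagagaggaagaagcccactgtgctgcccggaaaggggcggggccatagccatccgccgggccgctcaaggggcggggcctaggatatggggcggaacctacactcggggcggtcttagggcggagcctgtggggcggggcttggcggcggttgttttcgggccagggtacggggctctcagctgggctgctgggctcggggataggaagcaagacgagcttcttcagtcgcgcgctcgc

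Against the 7 mature labels summed (MOL1, MOL2a, MOL2b, MOL2/4, MOL4-5/6, MOL6a and MOL6b), MFOL2 cells as a whole differed in few genes. Of 1706 genes, 14 or 0.821% were at least 2-fold higher and 2 or 0.117% at least 2-fold lower, with a median log2 ratio of 0.02. Of the 14 higher genes, 7 had the same direction in both libraries, and in 12 a single cell held over 25% of the UMIs. The 14 included the progenitor genes Ptprz1, Cspg5, Marcks and Sox11 and the paranodal adhesion gene Nfasc. Most of this came from 4 cells, described below: they held over 50% of the UMIs of 11 of the 14 genes, and without them 13 of the 14 fell below 2-fold, leaving 2 genes higher and 3 lower in all. With TMM scaling the counts were 10 higher and 6 lower and the median of all genes was -0.09, so list medians near 0 have no direction of their own.

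Of the 14 higher genes, the one past 2-fold both with and without these cells was Fam114a2. It had 118 CPM in TdTom+ and 143 CPM in GFP+ MFOL2 cells, against 45.2 and 48.7 CPM in the mature labels, so that the libraries did not overlap. The log2 ratio was 1.34 (0.81 to 1.99) and 1.32 without the 4 cells, and 23 of the 65 cells had a UMI, at most 2 each. The value rests on 27 UMIs. Rnf11, encoding a small RING finger protein, had 194 CPM against 104 CPM, a log2 ratio of 0.87 with all 65 cells and of 1.01 without the 4. The other genes named as highest were Ap1s1 (0.95), Wapl (0.93), Hist3h2a (0.91), Ctdsp2 (0.87), Zfp207 (0.87) and Plod1 (0.85), none past 2-fold. In the GFP+ library alone Wapl had 0.04, Hist3h2a 0.38 and Plod1 1.48.

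The 2 lower genes were both on the MOL2 list. Klk6, a secreted serine protease gene, had 18.7 and 35.8 CPM in TdTom+ and GFP+ MFOL2 cells against 126 and 414 CPM in the mature labels, a log2 ratio of -3.03 (-4.90 to -2.05), with UMIs in 3 of the 65 cells. Its level was 287 and 294 CPM in MOL2b and MOL2a, 1541 CPM in MOL2/4 and between 6.06 and 8.37 CPM in the MOL4-5/6, MOL6a and MOL6b labels. S100b had 243 and 161 CPM in MFOL2 against 640 and 1105 CPM in the mature labels (log2 ratio -1.82, -2.29 to -1.44), with UMIs in 17 of 65 cells. It was higher in MFOL2 than in MFOL1 and lower than in the summed mature labels, of which MOL2a and MOL2b had 1925 and 1681 CPM and the MOL4-5/6, MOL6a and MOL6b labels 51.2 to 67.1 CPM, and it was also high in COP/NFOL (2155 CPM) and OPC (919 CPM). Without the 4 cells Sfpq, a splicing factor gene, was also lower, at 64.3 against 153 CPM (log2 ratio -1.19).

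Summed over cells, few genes set MFOL2 apart from every other label. Of 1586 genes with at least 100 CPM in MFOL2, 1 or 0.0631% was 1.5-fold or more above the next label. This was Tssc4, at 129 CPM against 79.3 CPM in COP/NFOL, with 57.1% of its UMIs in a single cell, and without the 4 cells no gene passed. MFOL1 had 19 such genes, MOL1 10, MOL2/4 59, COP/NFOL 368 and OPC 528, whereas MOL2a, MOL2b, MOL2/MFOL and MOL4-5/6 had 0 and MOL6a and MOL6b 1 each. The genes with the largest excess over the next label among those not resting on a single cell were Fam114a2 (1.44-fold), Magi1 (1.42), Bmp2k (1.37), Mrpl40 (1.32), Cpm (1.31), Ctdsp2 (1.31), Pak7 (1.30) and Rgma (1.30). When CPM was averaged over cells, Fam114a2, Magi1, Bmp2k and Hmgn2 were past 1.5-fold, the first 3 of them with UMIs in 23, 21 and 20 of the 65 cells.

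The 4 cells were those with 10 or more UMIs of the OPC, COP/NFOL or neuron marker list, all in the TdTom+ library. They held 13.8% of the UMIs of the 65 cells. The first had 8020 UMIs and 3228 genes, 48 UMIs of the OPC list, among them 14 of Ptprz1, 11 of C1ql1 and 9 of Pdgfra, the growth factor receptor that defines OPCs. It also held structural myelin RNA at 49127 CPM. OPC-labelled cells had a median of 35 OPC-list UMIs at a lower median depth, 2895 UMIs per cell, and a median of 3800 CPM of structural myelin RNA. The second cell, with 7297 UMIs and 2895 genes, had 21 OPC-list and 22 COP/NFOL-list UMIs, with 9 of Gpr17, a receptor gene of committed precursors, and myelin RNA at 59477 CPM. It also held 35 UMIs of Jun and 17 of Fos, of 118 and 62 in all 65 cells.

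The third cell was the deepest, with 10295 UMIs and 2798 genes, and had the highest structural myelin level of all 65, at 104711 CPM. It held 18 COP/NFOL-list UMIs, 66 of the 119 Nfasc UMIs, 42 of the 61 Pcdh17 UMIs, 31 of the 42 Tmem141 UMIs and all 6 Prom1 UMIs, and 0 UMIs of Hapln2, Pmp22 and Sepp1. All 15 of its neighbours were MFOL1 cells, the only MFOL2 cell of which over 50% of the neighbours were MFOL1. The fourth cell, with 4182 UMIs, held 15 neuron-list UMIs, 8 of them Stmn2, with 22 of the 23 Sox11 UMIs and all 19 Ccnd2 UMIs of the 65 cells. Its structural myelin level was 3587 CPM, with 2 UMIs of Mbp. Sox11 and Ccnd2 are known from dividing and newly born neural cells.

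The limit of 10 UMIs is on raw counts, and 3 of the 4 cells were the deepest of the 65. The other 61 cells, which the limit chose, had at most 1 OPC-list UMI, at most 1 neuron-list UMI and at most 6 COP/NFOL-list UMIs each, and structural myelin RNA between 39210 and 94737 CPM with a median of 69391 CPM. That median was 75682 CPM over MFOL1 cells and 69184 CPM over cells of the mature labels. Cells past the limit of 10 UMIs were 6.15% of MFOL2, 2.92% of MFOL1, 100% of OPC and COP/NFOL and between 0 and 1.24% of the remaining labels. Scrublet, a caller of doublets that was run on each library, marked 4 and 9 cells in all, among them 1 MFOL2 cell in each library, and none of the 4. The first of them, with 3228 genes, was the 1 MFOL2 cell above the 3000 genes that the study's methods allow, of 33 such cells in the data. The part of doublets in these cells was not tested beyond this.

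**Figure D4:**
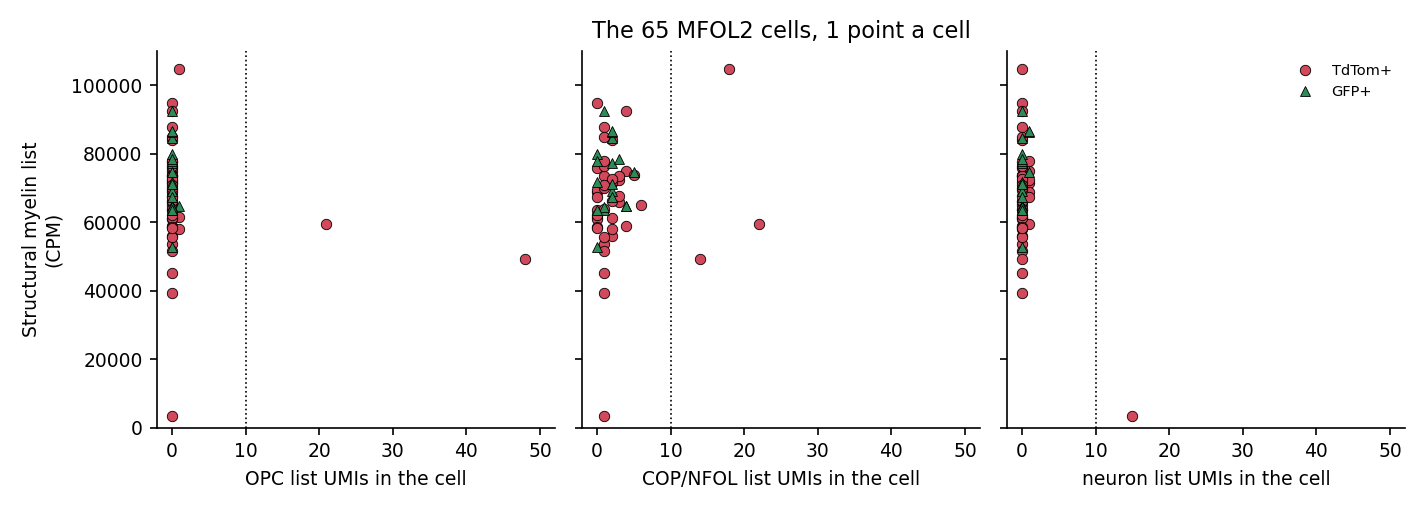
Summed CPM of the structural myelin list in each of the 65 MFOL2 cells (y axis), against the cell's UMIs of the OPC list (left), the COP/NFOL list (middle) and the neuron list (right), with TdTom+ cells as red circles and GFP+ cells as green triangles. The dotted line is the limit of 10 UMIs. The 4 cells to its right are all TdTom+, and the cell with 15 neuron-list UMIs lies at 3587 CPM.

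Placed between MFOL1 and the mature labels, MFOL2 stood nearer the mature side. Of the 94 genes at least 2-fold apart between MFOL1 and the mature labels, 79 had an MFOL2 level nearer the mature one on the log2 scale, and the median position was 0.78, with 0 at MFOL1 and 1 at the mature labels. MOL4-5/6 itself had a position of 0.78, MOL6b 0.72, MOL6a 0.66 and MOL2b 1.24. The 53 genes higher in mature cells were further along in MFOL2 (median 0.80) than the 41 genes lower in mature cells (0.61). These positions rest on CPM. TMM scaling moved the median log2 ratio of all genes to MFOL1 from 0.10 to -0.05, a shift that acts to narrow this gap. The deepest MFOL2 cell had 40894 CPM of the lower genes, against a median of 10276 CPM over MFOL2 cells. The gap was not tested with TMM scaling or without that cell. By cell, the log2 ratio of the summed CPM of both gene groups put 52 of 65 MFOL2 cells (80.0%) on the mature side of the midpoint, against 13.9% of MFOL1 and 86.1% of mature cells, with 12 MFOL2 cells within 0.5 of that midpoint. The score is a range and not a class, the same cells gave both the genes and the scores, and 85.5% of OPC cells also lay on the mature side.

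Placed between the MOL5/6 labels (MOL4-5/6, MOL6a, MOL6b) and the MOL2 labels (MOL2a, MOL2b), MFOL2 stood nearer the MOL5/6 side. Over the 70 genes at least 2-fold apart between them, the median position of MFOL2 was 0.38, with 0 at MOL5/6 and 1 at MOL2, and 20 genes were nearer MOL2. By cell, 15 of 65 (23.1%) lay on the MOL2 side, 8 of 46 in the TdTom+ library and 7 of 19 in the GFP+ library, against 2.36% of MOL5/6 and 89.2% of MOL2 cells. This side is not particular to MOL2, since 89.5% of COP/NFOL and 28.9% of OPC cells also lay there. The highest score of an MFOL2 cell, 3.38, was that of the cell with 15 neuron-list UMIs. The SD of this score was 1.63 over MFOL2 cells, 1.03 over MOL5/6 cells and 1.48 over MOL2 cells, with 2.37 over MOL1 and 1.95 over MOL2/4 cells, and 18 MFOL2 cells were within 0.5 of the midpoint.

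**Figure D5:**
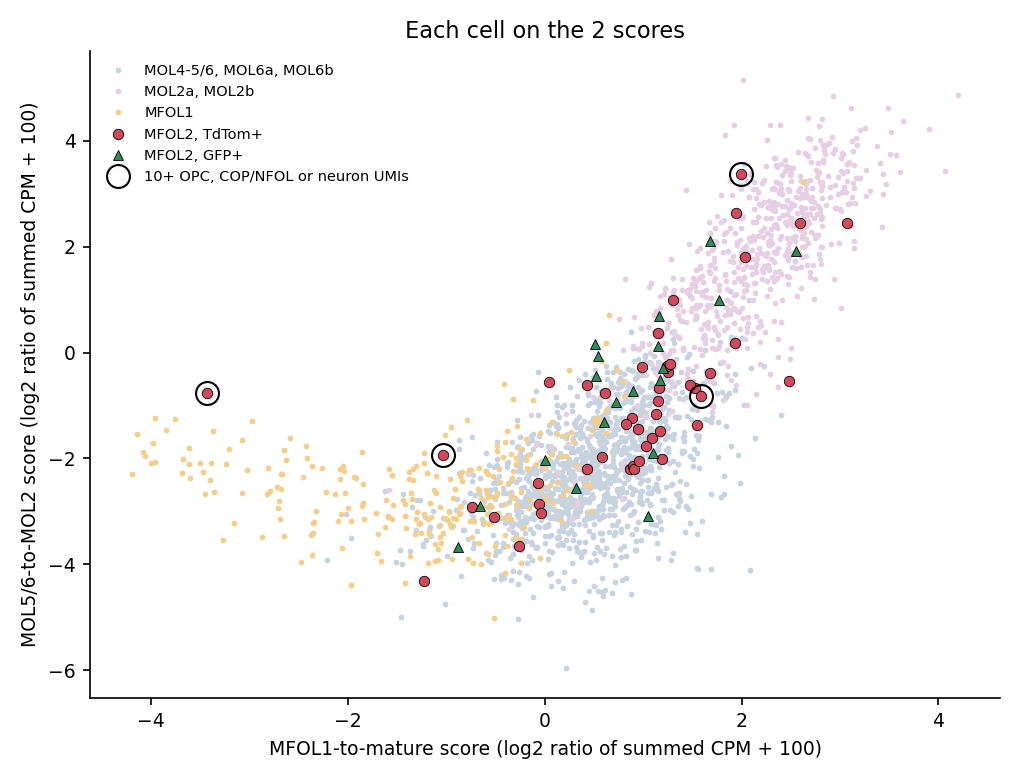
Each point is a cell, placed by 2 log2 ratios of summed CPM + 100: the MFOL1-to-mature score (higher for mature cells) and the MOL5/6-to-MOL2 score (higher for MOL2 cells). MFOL2 cells are red circles (TdTom+) and green triangles (GFP+), the 4 cells with 10 or more OPC, COP/NFOL or neuron list UMIs are ringed, and MFOL1, MOL5/6 and MOL2 cells lie behind in pale colours. The MFOL2 points spread along the whole band from MOL5/6 to MOL2 cells, with 15 of 65 on the MOL2 side.

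The lists were compared by their summed levels, and each count of members past 2-fold is to be read against 3.35% higher and 1.73% lower of all genes against MFOL1, and 0.821% and 0.117% against the mature labels. The MFOL list had 44330 CPM in MFOL2, rank 8 of the 12 labels, against 63719 CPM in MFOL1 and 46417 CPM in the mature labels, with 43550 and 46575 CPM in the TdTom+ and GFP+ libraries. Of its 8 members kept against MFOL1, 0 were 2-fold higher and 3 lower (Mal, Tspan2 and Serinc5), with a median log2 ratio of -0.60 against 0.10 over all genes. Mal, which encodes a protein that sorts myelin membrane, had 3345 CPM against 7282 CPM in MFOL1 and 3158 CPM in the mature labels. Opalin had 1072, 1809 and 848 CPM in the same order (log2 ratio to the mature labels 0.34). None of the 7 MFOL list genes kept against the mature labels was past 2-fold, a share near the background of 0.821%, and the list's sum was not above that of the mature labels in MFOL2 as a whole. Within 2-fold, Opalin (interval 0.14 to 0.53) and Tspan2 (log2 ratio 0.21, 0.01 to 0.41) were above the level of the summed mature labels. They were not above each of these labels. Opalin had 1329, 1667 and 1064 CPM in MOL4-5/6, MOL6a and MOL6b, and 223 and 256 CPM in MOL2a and MOL2b. Tspan2, at 961 CPM in MFOL2, had 1003, 1086, 1056, 560 and 599 CPM in the same labels.

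The MOL2 list had 610 CPM in MFOL2, 123 CPM in MFOL1 and 1535 CPM in the mature labels. Against MFOL1, 2 of its 2 kept members were higher (Spock3 and S100b), and against the mature labels 2 of 4 were lower (Klk6 and S100b). No member of the list reached the CPM minimum in MFOL1, the highest being S100b at 57.3 CPM. A member could therefore be kept against MFOL1 only by a higher level in MFOL2, so the direction of these 2 was fixed by the minimum. The MOL5/6 list had 19666, 19553 and 22063 CPM in the same order, with 3 of 7 kept members higher than in MFOL1 (Hapln2, Apod and Trf) and none lower, against 3.35% and 1.73% of all genes. All 3 had higher levels in MOL2a and MOL2b than in MOL4-5/6, MOL6a and MOL6b, so in these data they did not mark MOL5/6. Ptgds, the best known marker of the list, had 8375 CPM against 11929 CPM in MFOL1 (log2 ratio -0.51). Against the mature labels 0 of 7 were past 2-fold in either direction. The MOL1 list of immediate early genes had 661 CPM, against 429 CPM in MFOL1 and 4123 CPM in cells labelled MOL1.

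Genes of the myelin sheath as a whole were close to the mature level. Of 15 structural myelin genes, 2 were at least 2-fold lower than in MFOL1 (Mal and Tspan2) and 0 higher, against 1.73% and 3.35% of all genes, with a median log2 ratio of -0.24, and none was past 2-fold against the mature labels (median 0.08). Mbp, which compacts the cytoplasmic faces of the sheath, had a log2 ratio of -0.02 against MFOL1. Cholesterol synthesis genes had 961 CPM in MFOL2, 1017 CPM in MFOL1 and 910 CPM in the mature labels, with 1090 CPM in TdTom+ and 591 CPM in GFP+ MFOL2 cells, and none of the 3 kept members was past 2-fold, Insig1, a regulator of sterol synthesis, having 120 CPM against 97.9 and 64.7 CPM. Among 13 kept genes of fatty acid and galactolipid synthesis, Elovl5, a fatty acid elongase gene, was higher than in MFOL1 (111 against 43.0 CPM, log2 ratio 1.27), and 0 were past 2-fold against the mature labels. None of the 9 kept lineage transcription factor genes was past 2-fold in either comparison, with Sox10 at 1002, 868 and 896 CPM and Olig1 at 1280, 1422 and 1099 CPM in MFOL2, MFOL1 and the mature labels.

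Some cytoskeletal genes were past 2-fold. Of 18 kept actin genes 3 (Marcks, Anln and Sept8) were higher than in MFOL1, against 3.35% of all genes, with all of the Marcks UMIs in the 4 cells. Anln, encoding a scaffold of septins in the mature sheath, had 448 CPM against 128 CPM (log2 ratio 1.77) and Sept8 217 against 97.1 CPM (1.12). Against the mature labels 2 of 18 were higher, Marcks and Arpc1b, with 61.1% of the Arpc1b UMIs in the 4 cells. Of 10 kept tubulin genes, Tppp3, a tubulin polymerization gene, had 836 against 335 CPM (log2 ratio 1.31), and Tubb5 had 166 against 68.4 CPM (1.22) with 52.8% of its UMIs in a single cell. Neat1, a nuclear noncoding RNA, had 351 against 150 CPM in MFOL1 (log2 ratio 1.20) and 336 CPM in the mature labels. The immediate early list had 0 of 5 kept members past 2-fold in either comparison, the heat shock list 0 of 12 and the unfolded protein response list 0 of 3. No member of the MHC class I list reached 100 CPM, and the list summed to 46.2 CPM.

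Markers of other cell types were low or shared with oligodendrocytes. None of the 9 microglia genes had a UMI in the 65 cells, of which 3 were used by the rule, and the pericyte marker measured had 0. The endothelial list had 4 UMIs (all Kdr) and the red blood cell list 7 (all Hba-a1), and MFOL2 had the highest level of both among the 12 labels (18.5 and 32.3 CPM). Foxj1, the ependymal marker measured, had 41.6 CPM against 100.3 CPM in MFOL1. The astrocyte list had 3234 CPM in MFOL2, 1652 CPM in MFOL1 and 3475 CPM in the mature labels, and 2 of its 3 kept members, Glul and Slc1a3, were higher than in MFOL1. Glul, which makes glutamine and is expressed by oligodendrocytes too, had 1626 against 785 CPM (log2 ratio 1.05), while Aqp4 and Gja1, defining astrocyte genes, had 0 UMIs. Their part in the differences from MFOL1 was not tested.

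Between the origins, MFOL2 cells had similar levels of the genes with most RNA. The minimum here was 500 CPM in place of the 100 CPM used above, and no other minimum was tried. Genes below it could differ in either direction. Arpc1b had 205 CPM in TdTom+ and 53.7 CPM in GFP+ cells, and Serinc5 56.0 and 143 CPM. All of the 4 cells described above were TdTom+. Among 254 genes averaging at least 500 CPM, 0 (0%) were at least 2-fold higher in TdTom+ and 1 or 0.394% at least 2-fold higher in GFP+ cells, and r across genes was 0.957. The gene was Wscd1, at 361 CPM in TdTom+ and 734 CPM in GFP+ MFOL2 cells (log2 ratio -1.01, -1.63 to -0.41), against -0.04 in the mature labels, and it fell under 2-fold without the 4 cells. Sepp1 had a log2 ratio of -0.83 (-1.21 to -0.44) in MFOL2, and of -0.37 in the mature labels. Sox10 had 1133 CPM in TdTom+ and 627 CPM in GFP+ MFOL2 cells, a log2 ratio of 0.85 (0.33 to 1.42), and of 0.69 in the mature labels of the same libraries. Mag (0.75) and Plekhb1 (-0.76) had ratios in MFOL2 that were close to 0 in the mature labels (-0.05 and -0.00247). With 1 library per origin, library and origin cannot be told apart.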

How the data were processed

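Single-cell libraries (10x 3' v2) of TdTom+ and GFP+ cells of the P60 corpus callosum were analysed. The submitters' processing notes name Cell Ranger 2.1.1 and build mm10, and the authors' methods name STAR (version not given in the sources used here), filters on genes and mitochondrial UMIs per cell, and clustering in Seurat. The values the authors deposited are a signal: each gene's UMIs divided by the UMIs of its cell. The deposited table of cells gave the total UMI count, the genes, the library and the label, and its other 35 columns, among them a second, merged label, were not used.

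Each column was divided by its smallest value above 0, and all of the results (100%) were whole to within 0.01. The recovered counts of 11733 genes were summed over cells and given as CPM, and log2 ratios had a pseudocount of 5 CPM with genes of at least 100 CPM in the higher group. The plan had assumed counts. No test was made, since there was 1 library per origin and the labels may have been made from the same transcriptomes. Intervals are exact (Clopper-Pearson, or conditional on both sums) at 95%. The depth of a library was 7129294 UMIs (TdTom+) and 3584940 UMIs (GFP+).

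The members, gene lists and comparisons were chosen with earlier results of these data known, and the 2 scores, the limit of 10 UMIs and the 4 cells it marks were chosen after values were seen. Named genes were the 8 highest and 8 lowest per comparison with the same direction in both libraries (higher genes also with no cell over 25% of the UMIs), the 8 highest over the next label, and list members with extreme ratios. Mal, Anln, Mbp, Sfpq, Tssc4, Wscd1, Mag, Plekhb1, Aqp4, Gja1 and genes of the 4 cells outside this rule were named after their values were seen. Doublets were not removed. Neighbours came from scanpy 1.11.5 and TMM factors from edgeR 4.0.16. The scripts were tested on simulated data. Some single genes are not reported here. For Sepp1 the promoter table uses a newer symbol.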

Additional observations from a re-analysis of the deposited data

Results flagged for a closer look

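The cell left out of the MFOL2 label is not part of any summed level above. It stayed in the totals of cells and, without a label, in the search for neighbours. It held 61 UMIs of C1qa, C1qb and Cx3cr1 (20, 23 and 18), while no other cell held more than 1. It was a TdTom+ cell with 4131 UMIs and 1515 genes, 21.5% of its UMIs came from ribosomal protein genes, and the authors' total for it exceeds the matrix by 188 UMIs, against a median of 7 in the 65 kept cells. What kind of cell it was beyond these markers was not tested.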

How the results depend on the processing

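No test was made, paired or unpaired. The ratios of MFOL2 to MFOL1 and to the mature labels within each of the 2 libraries are paired values and are given as such. The share of MFOL2 cells and the own-label neighbour share (2.56% to 3.49%) kept their values within counting error under all alternatives tried. Of 384 recomputed values of the 32 ratios that the rule for named genes chose against MFOL1 or the mature labels, 0 changed direction and 13 left the counting interval. The rule had already required the same direction in both libraries, so values from either library alone could not change direction. It also took the most extreme ratios, so the count of 0 is largely set by the choice of genes.

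Against MFOL1, 88 genes past 2-fold became 239 with a minimum of 50 CPM, 1474 with no minimum and 325 in the GFP+ library alone. The other alternatives gave 67 to 131. With each cell thinned to equal depth the count was 106, with 40 of the 58 higher and 16 of the 30 lower genes shared, and leaving out the 4 cells (chosen after the data were seen) gave 65 higher and 52 lower, 46 and 28 of them shared with the 58 and 30. TMM factors turned the share of higher genes from 65.9% to 49.5%, and from 87.5% to 62.5% against the mature labels.

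Against the mature labels, 16 genes past 2-fold became 6 when CPM was averaged over cells, 81 with a minimum of 50 CPM, 1088 with no minimum, 43 in TdTom+ alone, 172 in GFP+ alone and 5 without the 4 cells. With each cell thinned, 12 genes were higher, of which 1 was among the 14, and 11 lower.

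Genes 1.5-fold above every other label went from 1 to 8 in TdTom+ alone, 53 in GFP+ alone (0 shared by both), 4 when CPM was averaged over cells, 3 with all 66 cells and 0 without the 4 cells. It was 110 for any excess and 0 at 2-fold. Genes past 2-fold between the origins went from 1 to 0 both when CPM was averaged over cells and without the 4 cells.

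Median genes per cell were 1356 with no thinning. Without the 4 cells the OPC list had 16.1 CPM in place of 337 CPM, the COP/NFOL list 525 in place of 707, the neuron list 48.2 in place of 115 and the MOL5/6 list 21321 in place of 19666. Depth limits the low genes: Ptprz1, at 102 CPM, rests on 22 UMIs in the 65 cells.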
